A study of Mus musculus with 18 samples.

Results

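Integrins are a family of receptors with which cells hold on to extracellular matrix, and laminins and collagens are 2 protein families of that matrix. Members were chosen by symbol: every protein-coding mouse gene whose name is Itga or Itgb followed by a number or letter, Lama, Lamb or Lamc followed by a number, or Col, a number, a and a number, with the Itgb1bp and Itgb3bp genes left out. This gave 83 genes of the 27179 in the count tables, 28 integrins, 11 laminins and 44 collagens, where Itgbl1 and Itgb2l enter by name as integrin-like genes. RNA was sequenced from embryoid bodies of mouse embryonic stem cells of the Ainv15 background that were driven toward motor neurons by 1 µM retinoic acid and 0.5 µM of the smoothened agonist SAG, which every group received from day 0. Day 2 progenitors came from the iCre line at day 2 without doxycycline (Dox), and control neurons from the iFlag.Hoxc6 line at day 4 without Dox. The iHoxc6, iHoxc8, iHoxc9 and iHoxc10 neurons came from the iFlag.Hoxc6, iFlag.Hoxc8, iFlag.Hoxc9 and iFlag.Hoxc10 lines at day 4 after 48 h in 3 µg/ml Dox, which switched on a single-copy Flag-tagged Hox transgene. Each group had 3 libraries and each Hox gene 1 line, the transgene switches on under Dox in whichever cells the culture holds, and cultures without Dox from the other 3 iHox lines were not analysed here.

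Integrins are transmembrane receptors made of an alpha and a beta chain, where the alpha chain largely sets whether the pair binds collagens, laminins or proteins with an RGD motif such as fibronectin. Laminins are trimers of an alpha, a beta and a gamma chain that self-assemble into sheets and, with the collagen IV network, form the basement membrane. Collagens are trimers of chains that build fibrils, decorate fibrils, form networks or span the cell membrane. In the developing neural tube a laminin-rich basement membrane surrounds the neuroepithelium, and neurons and their axons use integrins to grow and migrate on matrix.

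Total counts were 24498630 to 33168533 per library, so 3 counts correspond to 0.0883 to 0.122 CPM (TMM-scaled reads relative to library size), which covers counting error only. The induced gene had the highest mean in its own line for each of the 4 Hox genes, from 224 CPM of Hoxc9 to 514 CPM of Hoxc6. Hoxc6 was also at 47.3 CPM in iHoxc10 neurons, against 3.18 CPM in control and 2.14 CPM in iHoxc9 neurons. The summed level of 5 neuron markers was 254 to 510 CPM in day 2 progenitors and 4650 to 5170 CPM in control neurons, and that of 5 motor neuron markers was 18 to 41.7 and 493 to 523 CPM. By the flow cell codes in the sample descriptions, control and iHoxc6 libraries share a code, iHoxc9 and iHoxc10 libraries share another, and day 2 progenitors and iHoxc8 neurons each have their own. Between iHoxc9 and iHoxc10 neurons the cell line and the level of Hoxc6 change together with the induced Hox gene, and these cannot be told apart. In the comparisons that cross codes the line, the flow cell code and the Hox gene (or the day) cannot be told apart. Against control, Dox itself changes together with the Hox gene in every iHox group, iHoxc6 included, and these cannot be told apart. In these bulk cultures, fewer cells of a type and less RNA per cell cannot be told apart either.

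Levels of the members ranged widely. Of the 83 members, 42 were at 1 CPM or more on average in control neurons, 53 reached a mean of 1 CPM in at least 1 group, 31 in every group and 30 in none. Per kilobase of exon, averaged over all 18 libraries, the highest integrin was Itgb1 at 51.8 CPM per kb, the beta chain shared by the largest set of integrins. It was followed by Itga3 at 4.96 and Itga6 at 4.48 CPM per kb, alpha chains of laminin receptors. The highest laminins were Lamc1 at 8.61, Lama1 at 8.47 and Lamb2 at 4.44 CPM per kb. Among collagens Col18a1, whose C-terminal fragment is endostatin, led at 36.2 CPM per kb, before the collagen IV chains Col4a1 at 11.6 and Col4a2 at 8.62 CPM per kb. Itgb1 was at 312, 279 and 216 CPM in the 3 day 2 libraries, at 227, 209 and 175 CPM in control libraries and at 175 to 250.5 CPM in the 12 iHox libraries, and it did not pass the test in any of the 6 comparisons with all libraries. Without day 2 library 3 it was lower in control neurons than at day 2 (LFC -0.54, adjusted p = 0.000922).

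Of the 83 members, 80 had at least 1 count in an iHox library and entered edgeR's quasi-likelihood test, and Col10a1, Itgb2l and Itgax did not. A member passed at an adjusted p under 0.01 over all 20944 genes tested, and was called when its absolute log2 fold change (LFC) was also above 2. Over the 6 comparisons 47 members passed at least once and 29 were called at least once. The matching shares of all genes were not computed. In control against day 2 progenitors alone, 21.2% of all genes were higher, 21.2% lower and 12.6% called. Members under 1 CPM in both compared groups stand outside the rule for named genes, and where such a member, or 1 that passed without being called, is named with values (Itga2, Itga7, Itgav, Itgb5, Col1a1, Col4a3, Col4a4, Col6a4, Col8a1, Col11a1, Col13a1, Col16a1), it was chosen after its values were seen.

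**Figure D1:**
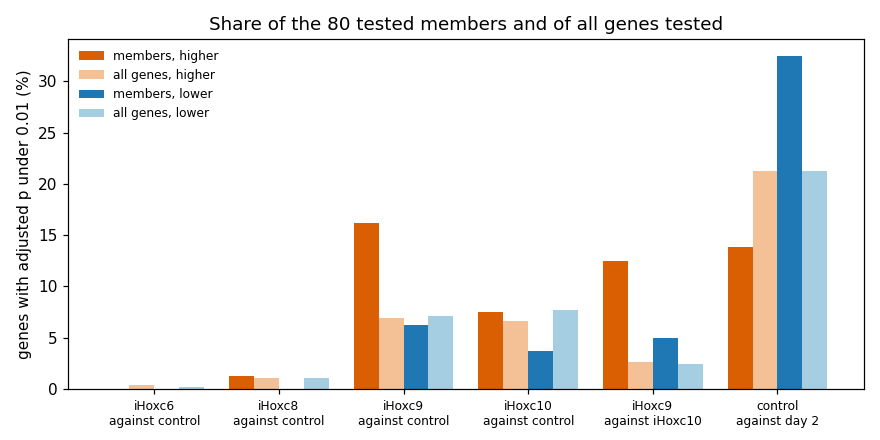
Share of genes with an adjusted p under 0.01 in each comparison (percent, vertical axis), for the 80 tested members (dark bars) and for all 20944 genes tested (light bars), split into higher (orange) and lower (blue) in the first-named group. The shares of members stand above those of all genes for higher genes in iHoxc9 against control (16.2% and 6.95%) and for lower genes in control against day 2 progenitors (32.5% and 21.2%). They also do in iHoxc9 against iHoxc10, for higher (12.5% and 2.6%) and lower genes (5% and 2.4%). The excess is smaller for higher genes in iHoxc8 and iHoxc10 against control.

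The step from day 2 progenitors to control neurons, which holds differentiation without Hox induction, was marked by lower levels of the chains that make up the basement membrane and of several of their receptors. Of the 80 members 26 fell (32.5%) and 11 rose (13.8%), against 21.2% of all genes lower and 21.2% higher, and 18 members were called (22.5%) against 12.6% of all genes. The median LFC of the members was -0.66 and that of all genes tested was 0. By family, 7 of 11 laminins fell and 2 rose, 7 of 26 integrins fell and 2 rose, and 12 of 43 collagens fell and 7 rose. The summed level of all laminins was 358, 402 and 406 CPM in the day 2 libraries and 126, 202 and 101 CPM in the control libraries.

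Among laminins, Lamb1, the beta chain of the early basement membrane laminins, was at 49.5, 48.7 and 64.3 CPM in day 2 libraries and at 2.47, 7.97 and 1.80 CPM in control libraries. It fell 13.3-fold (LFC -3.74 ± 0.404, where ± after an LFC is its standard error, adjusted p = 5.29e-08), with no overlap between groups. Its partners fell less: Lama1 from 124 ± 27.2 to 64.8 ± 19.4 CPM (SD, n = 3; LFC -0.93 ± 0.211) and Lamc1 from 123 ± 13.4 to 46.7 ± 21.7 CPM (LFC -1.40 ± 0.214). Lama5, the alpha chain that accompanies the maturing basement membrane, was at 34.9, 44.8 and 56.1 CPM at day 2 and at 7.90, 8.55 and 6.85 CPM in control neurons (LFC -2.54 ± 0.232, adjusted p = 4.01e-09). Lamb2 fell from 38.5 ± 9.65 to 16.7 ± 7.67 CPM (LFC -1.21 ± 0.226), so that the fall of Lamb2 was smaller than that of Lamb1 by point estimate. Lama4 was highest in library 3 of day 2 (0.606, 1.06 and 2.31 CPM at day 2, 0.450, 0.231 and 0.15 CPM in control neurons, LFC -2.22 ± 0.562). It did not pass without day 2 library 3 or without control library 3 (highest adjusted p 0.0219). Moving the other way, Lamb3 rose from 0.368 ± 0.153 to 1.20 ± 0.167 CPM (LFC 1.69 ± 0.355), and Lama2, the alpha chain of muscle and Schwann cell laminin, from 0.449 ± 0.0917 to 1.17 ± 0.366 CPM (LFC 1.39 ± 0.290).

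The collagen IV genes and Col18a1 carried most of the collagen reads at day 2 and fell with the laminins. Col4a1 was at 193, 223 and 291 CPM in day 2 libraries and at 41.2, 78 and 28.6 CPM in control libraries (LFC -2.26 ± 0.257, adjusted p = 1.16e-07). Col4a2, which lies head to head with Col4a1 on chromosome 8, was at 94.9, 118 and 167 CPM and then at 28.9, 43.9 and 18 CPM (LFC -2.07 ± 0.256). The annotated spans of this pair overlap at their starts, and reads there cannot be told apart because the strand setting of the counting was not given in the sources used here. Col4a6 fell 10.5-fold, from 3.03, 4.06 and 7.40 CPM to 0.418, 0.732 and 0.225 CPM (LFC -3.40 ± 0.397). Its neighbor Col4a5, which starts near it on the opposite strand of the X chromosome, fell 1.92-fold from 17.4 ± 1.92 to 9.07 ± 3.08 CPM (LFC -0.94 ± 0.231), and did not pass without control library 3 (adjusted p = 0.0129). Within collagen IV, therefore, 4 of 6 genes fell, and Col4a4 rose from 0.362 ± 0.0993 to 1.06 ± 0.257 CPM (LFC 1.54 ± 0.370).

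Col18a1 was at 427, 517 and 918 CPM in day 2 libraries and at 124, 247.5 and 91.4 CPM in control libraries (LFC -2.01 ± 0.275, adjusted p = 1.72e-06). Library 3 of day 2 was the highest for Col18a1, Col4a1, Col4a2 and Itga3 alike. Col7a1, the collagen of anchoring fibrils, fell from 2.79 ± 0.780 to 0.501 ± 0.0892 CPM (LFC -2.47 ± 0.338). Col6a6, a collagen VI chain, was at 1.48, 1.23 and 1.28 CPM at day 2 and in 1 read over the 3 control libraries, a ratio of 111 with a counting interval of 19.6 to 4440 (95%). Col1a2, a chain of fibrillar collagen I, fell 10.7-fold from 10.3, 11.5 and 19.8 CPM to 2.18, 1.19 and 0.449 CPM (LFC -3.42 ± 0.378, adjusted p = 7.8e-08).

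The 7 collagens that rose with differentiation came from the same classes as those that fell, apart from the transmembrane Col13a1. Col26a1 was at 1.68, 2.26 and 4.87 CPM at day 2 and at 28.8, 16.4 and 19.5 CPM in control neurons (LFC 2.87 ± 0.311, adjusted p = 5.78e-08). Col3a1, the fibrillar collagen of soft tissue, went from 1.11, 0.865 and 0.375 CPM to 4.63, 4.35 and 2.96 CPM (LFC 2.35 ± 0.448). Col14a1, a fibril-associated collagen, rose from 0.0772 ± 0.0517 to 0.482 ± 0.108 CPM (LFC 2.58 ± 0.500), both under 1 CPM. Col13a1, a transmembrane collagen found at neuromuscular synapses, was in 3 reads over the day 2 libraries and 51 reads over the control libraries, a ratio of 18.6 with a counting interval of 6.02 to 93.2.

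Among integrins, the fibronectin receptor chain Itga5 had the largest fall of the integrins above 1 CPM. It was at 15.6, 17.6 and 32.5 CPM at day 2 and at 2.67, 2.39 and 1.65 CPM in control neurons (LFC -3.29 ± 0.292, adjusted p = 2.47e-09). The laminin receptor chains Itga3 (35.3, 39.6 and 87.4 CPM to 19.2, 18.2 and 14.2 CPM, LFC -1.65 ± 0.242) and Itga6 (52.4, 44.3 and 90.0 CPM to 33, 40.2 and 23.6 CPM, LFC -0.95 ± 0.208) fell as well. The vitronectin receptor chains Itgav (LFC -0.75 ± 0.204) and Itgb5 (LFC -1.37 ± 0.183) also fell. The integrin alphas that rose were Itga7, a laminin receptor chain best known from muscle (0.670 ± 0.223 to 1.79 ± 0.136 CPM, LFC 1.42 ± 0.261), and Itga8, an RGD receptor chain (1.18 ± 0.377 to 2.7 ± 0.399 CPM, LFC 1.18 ± 0.320). Itga8 did not pass without day 2 library 2 or control library 2 (highest adjusted p 0.0289), nor Itgav without control library 1 or 3 (highest adjusted p 0.0224).

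**Figure D2:**
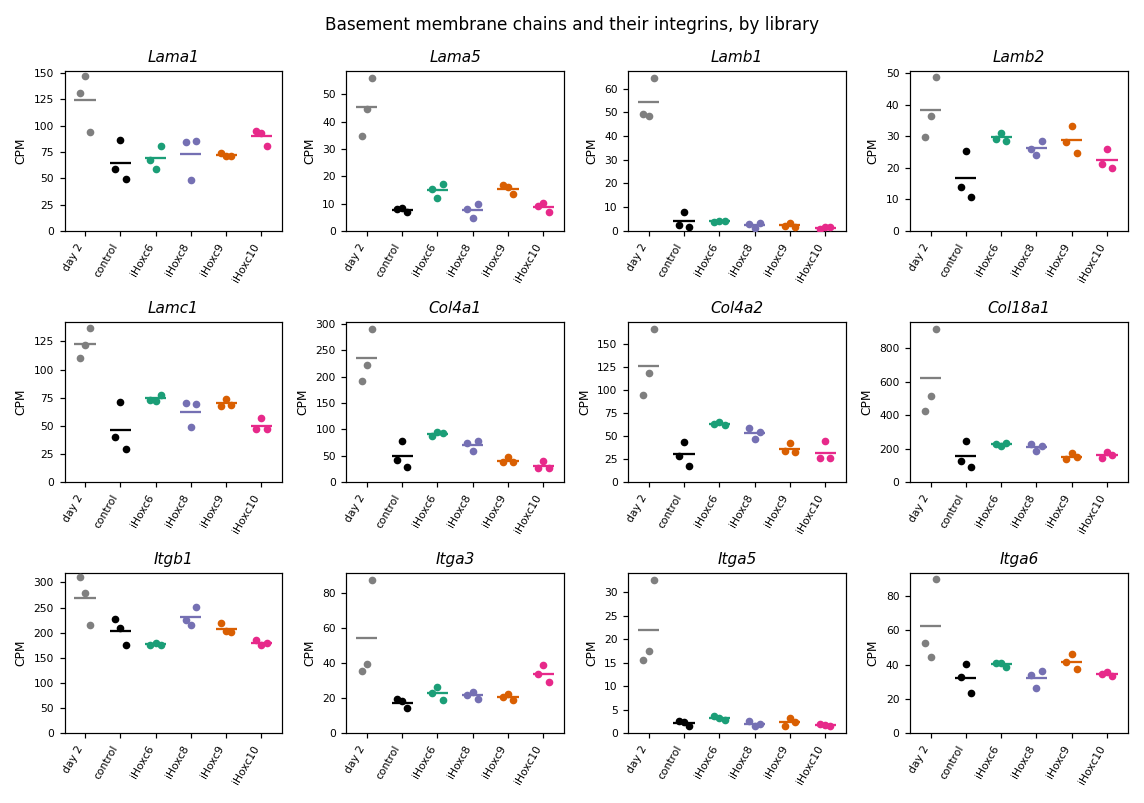
CPM of 12 basement membrane chains and integrin chains (vertical axes, linear) in every library of the 6 groups (horizontal axes), with points for libraries and lines for group means. Lamb1, Lama5, Col4a1, Col4a2, Col18a1 and Itga5 were highest in the 3 day 2 libraries, and Itgb1 overlapped between groups.

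Of the 37 members that passed between day 2 and day 4, 29 passed with any 1 library left out. In a fit of these 2 groups alone 25 members passed, and Lama1 (adjusted p = 0.0129), Lama2 (adjusted p = 0.0148) and Itga6 (adjusted p = 0.0230) were among those that did not, as were Lama4, Col4a5, Itga8 and Itgav. Over the same step, the summed level of 6 endoderm markers (Sox17, Gata4, Gata6, Dab2, Afp, Ttr) went from 18.5 to 22.0 CPM at day 2 to between 2.62 and 7.20 CPM in control libraries, with 4 of 5 tested lower and Sox17 and Afp at 3 counts or fewer in every control library. Mesenchyme and mesoderm markers went from 8.99 to 12.4 CPM to between 2.77 and 2.96 CPM (3 of 6 lower) and endothelial markers from 3.06 to 4.72 CPM to between 0.711 and 1.85 CPM (3 of 5 lower). Pluripotent cell markers went from 7.32 to 11.9 CPM to between 0.835 and 1.23 CPM (3 of 5 lower), while floor plate markers went from 152 to 391 CPM to between 454 and 597 CPM (4 of 5 higher). The part of these cells in the levels of the matrix genes was not tested. The 3 control libraries were also spread: library 2 had the highest summed collagens (501 CPM, against 342 and 240 CPM), laminins (202 CPM) and neural progenitor markers (573 CPM, against 311 and 263 CPM), and whether these go together was not tested.

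In iHoxc9 neurons more integrin and collagen genes were higher than lower against control. Of the 80 members 13 rose (16.2%) and 5 fell (6.25%), while 6.95% of all genes were higher and 7.13% lower, and 10 members were called (12.5%) against 2.7% of all genes. The median LFC was 0.29 over the members and 0.00126 over all genes tested. Collagens made up 9 of the 13 that rose, and the others were Itga1, Itga8, Itgav and Lama5.

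The largest change belonged to Itga1, the alpha chain that pairs with Itgb1 into a collagen and laminin receptor. Itga1 was at 3.48, 2.47 and 2.43 CPM in iHoxc9 libraries and at 0.0321, 0.077 and 0 CPM in control libraries. The ratio was 77.2 (adjusted p = 3.46e-07), with a counting interval of 26.1 to 377 because control neurons held 3 reads of Itga1 in all. No other group came near this level: iHoxc6 libraries were at 0.0311 to 0.208 CPM, iHoxc8 libraries at 0 to 0.100 CPM, iHoxc10 libraries at 0 to 0.0717 CPM and day 2 progenitors at 0.337 to 0.750 CPM. Itga1 lies at chr13:114958079-115101964 on the minus strand of GRCm38, and the gene Pelo lies within its span. Pelo was at 18.2 to 19.7 CPM in iHoxc9 libraries and 12.0 to 20.4 CPM in control libraries (LFC 0.29 ± 0.205, adjusted p = 0.342).

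Itga2, which encodes the other widely used collagen receptor alpha chain, is the next gene on the same strand (chr13:114833081-114932100) and moved in the opposite direction. Itga2 was at 0.156, 0.265 and 0.0796 CPM in iHoxc9 libraries and at 0.610, 1.23 and 0.487 CPM in control libraries (LFC -2.11 ± 0.454, adjusted p = 0.00159). It did not pass without control library 2 (adjusted p = 0.01 after rounding). Per kilobase, the ratio of Itga1 to Itga2 was 3.58 to 11.7 in iHoxc9 libraries and at most 0.0369 in the libraries of the other day 4 groups. A second pair of related chains moved apart in the same way: Col8a1 and Col8a2 encode the chains of the network-forming collagen VIII and lie on chromosomes 16 and 4. Col8a1 was at 0.469, 0.412 and 0.438 CPM in iHoxc9 libraries and in 4 reads over the control libraries, a ratio of 9.16 (counting interval 3.29 to 35.4, adjusted p = 0.00303). Col8a2 was at 0.274, 0.677 and 0.279 CPM in iHoxc9 libraries and at 5.59, 1.43 and 2.13 CPM in control libraries (LFC -2.84 ± 0.508, adjusted p = 0.000289). Col8a1 did not pass without control library 1 or 3 or iHoxc9 library 1 (highest adjusted p 0.0244).

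The 250 bases upstream of the starts of these 4 genes are shown because each pair holds 1 gene that rose and 1 that fell in iHoxc9 neurons. Capitals mark the core TTTAT or its reverse complement ATAAA, letters that occur in the preferred DNA sites of posterior Hox proteins. Sequences are from RefSeq on GRCm38.p6 and read 5′ to 3′ on the strand of the gene, chr13:115101965-115102214 minus for Itga1, chr13:114932101-114932350 minus for Itga2, chr16:57754738-57754987 minus for Col8a1 and chr4:126286544-126286793 plus for Col8a2.
Itga1: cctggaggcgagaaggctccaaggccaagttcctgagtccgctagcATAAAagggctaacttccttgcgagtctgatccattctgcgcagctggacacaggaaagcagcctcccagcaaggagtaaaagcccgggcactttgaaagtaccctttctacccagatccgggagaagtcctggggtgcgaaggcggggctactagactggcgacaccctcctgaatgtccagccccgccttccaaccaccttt
Itga2: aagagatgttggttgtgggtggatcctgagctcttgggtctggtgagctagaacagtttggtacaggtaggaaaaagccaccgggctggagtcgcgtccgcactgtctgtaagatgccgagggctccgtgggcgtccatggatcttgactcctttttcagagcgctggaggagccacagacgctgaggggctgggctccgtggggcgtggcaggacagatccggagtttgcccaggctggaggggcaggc
Col8a1: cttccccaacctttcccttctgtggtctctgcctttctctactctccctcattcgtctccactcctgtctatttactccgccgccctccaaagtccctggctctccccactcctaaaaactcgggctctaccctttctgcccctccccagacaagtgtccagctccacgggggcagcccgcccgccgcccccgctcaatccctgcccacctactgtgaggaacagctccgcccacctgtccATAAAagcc
Col8a2: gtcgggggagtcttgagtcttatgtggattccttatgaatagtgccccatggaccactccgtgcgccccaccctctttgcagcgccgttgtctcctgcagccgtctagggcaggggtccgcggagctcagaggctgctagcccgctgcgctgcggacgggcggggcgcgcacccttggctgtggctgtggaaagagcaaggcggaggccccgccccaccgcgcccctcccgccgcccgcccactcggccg
The windows of Itga1 and Col8a1 hold 1 match each, and those of Itga2 and Col8a2 hold 0. Searched on both strands, the core is in 37.3% of the 32851 RefSeq windows of this length, and in 28.3% of the 60 members with a window (17 genes). Of the 13 members that rose in iHoxc9 neurons 9 have a window and 6 of these hold a match, and of the 5 that fell 4 have a window and 0 hold a match. These letters are common, and a match is a description of the sequence. The split of matches between members that rose and fell was not tested. The paper reported Hox binding sites to lie overwhelmingly far from transcription start sites, which these windows do not cover.

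Among collagens above 1 CPM the largest rise was that of Col12a1, a fibril-associated collagen. Col12a1 was at 25.8, 32.8 and 18 CPM in iHoxc9 libraries and at 6.30, 2.50 and 1.83 CPM in control libraries (LFC 2.83 ± 0.387, adjusted p = 1.2e-05), with no overlap. Col5a2, a regulatory chain of fibrils that co-assembles with Col5a1, was at 13.7, 16.5 and 12.2 CPM against 4.95, 2.85 and 1.87 CPM (LFC 2.12 ± 0.292, adjusted p = 1.27e-05). Its partner Col5a1 was at 18.1 ± 2.11 CPM and 11.1 ± 3.49 CPM and did not pass, except without control library 2 (adjusted p = 0.00174). Col9a2, a chain of the fibril-associated collagen IX, was at 2.86, 5.18 and 3.42 CPM against 1.06, 0.578 and 0.636 CPM (LFC 2.32 ± 0.360, adjusted p = 6.04e-05). Col11a1, a minor fibrillar chain, rose from 4.93 ± 1.89 to 11.7 ± 1.17 CPM (LFC 1.25 ± 0.239). Col14a1 rose from 0.482 ± 0.108 to 1.29 ± 0.266 CPM (LFC 1.41 ± 0.338), and did not pass without control library 1 or iHoxc9 library 3 (highest adjusted p 0.0294). Col4a3 was detected in 21 reads over the iHoxc9 libraries and in 0 over the control libraries, at least 6.93-fold higher against 3 counts over the group. It did not pass without control library 1 or 3 (highest adjusted p 0.0125).

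The RGD receptor chains Itgav and Itga8 rose together. Itgav was at 40.8, 39.0 and 33 CPM in iHoxc9 libraries and at 16.8, 22.1 and 14.3 CPM in control libraries (LFC 1.08 ± 0.204, adjusted p = 0.00049). Itga8 was at 6.88, 5.39 and 5.45 CPM against 2.51, 3.16 and 2.43 CPM (LFC 1.13 ± 0.294, adjusted p = 0.00698), and this rise did not pass without control library 1 or 3 or any of the iHoxc9 libraries (highest adjusted p 0.0453). The beta chains had no member that passed, including Itgb1 at 208 ± 9.82 CPM in iHoxc9 and 203 ± 26.4 CPM in control neurons. Lama5 was at 16.9, 16 and 13.7 CPM in iHoxc9 libraries against 7.90, 8.55 and 6.85 CPM (LFC 1.00 ± 0.227, adjusted p = 0.00255), and did not pass without control library 3 or iHoxc9 library 1 or 2 (highest adjusted p 0.0240).

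The members that fell in iHoxc9 neurons numbered 5, and 3 of them were genes that had risen between day 2 and day 4 in control neurons, Lamb3, Col8a2 and Col26a1. The earlier rise of Col8a2 (LFC 1.67 ± 0.454) did not pass without day 2 library 1 or 2 or control library 1, or in a fit of the 2 groups alone (highest adjusted p 0.101). Lamb3, a laminin beta chain of epithelia, was at 0.117, 0.294 and 0.0796 CPM in iHoxc9 libraries and at 1.06, 1.16 and 1.39 CPM in control libraries (LFC -2.76 ± 0.404, adjusted p = 3.05e-05). Col26a1 was at 6.06, 7.98 and 7.09 CPM against 28.8, 16.4 and 19.5 CPM (LFC -1.61 ± 0.291, adjusted p = 0.00032). Both comparisons use the same control libraries. Col1a2 fell from 1.28 ± 0.871 to 0.338 ± 0.0571 CPM (LFC -1.91 ± 0.480), and did not pass without control library 1, which was highest at 2.18 CPM, without any 1 of the iHoxc9 libraries or in a fit of the 2 groups alone (highest adjusted p 0.0802).

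**Figure D3:**
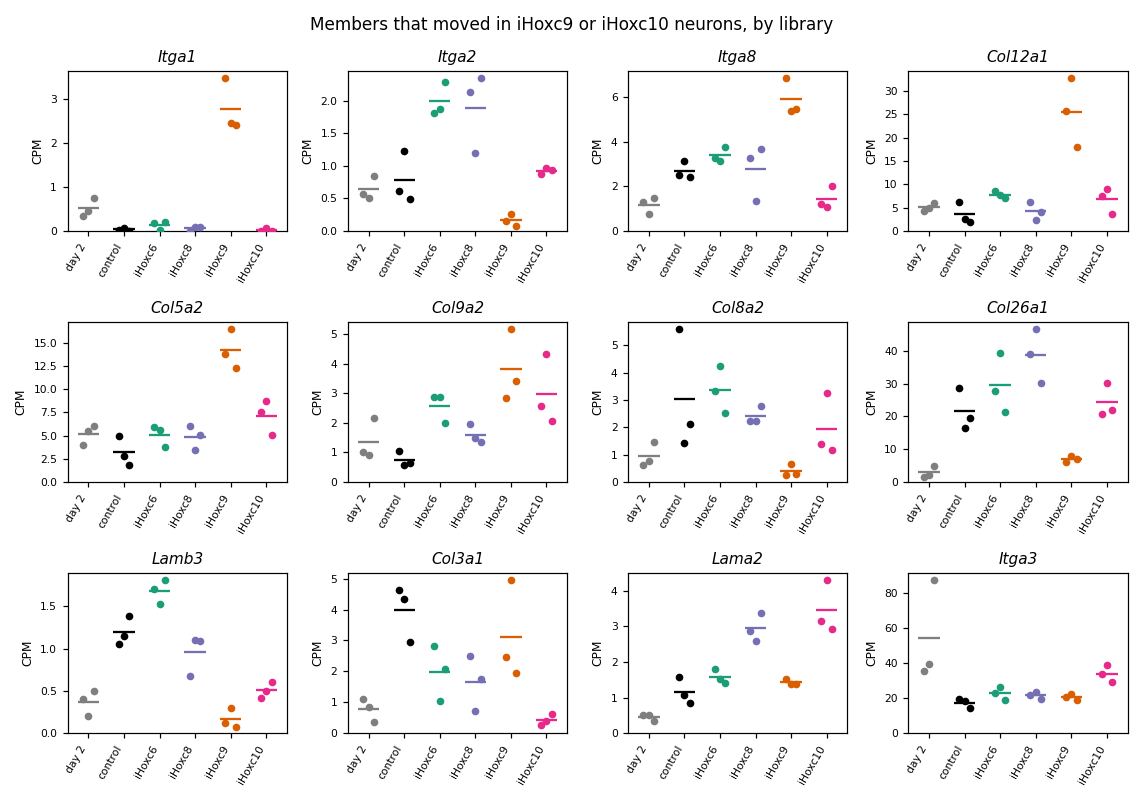
CPM of 12 members (vertical axes, linear) in every library of the 6 groups (horizontal axes), with points for libraries and lines for group means. The iHoxc9 libraries stand above all others for Itga1, Itga8, Col12a1 and Col5a2 and below all other day 4 libraries for Itga2, Col8a2, Col26a1 and Lamb3, and the iHoxc10 libraries are the lowest day 4 libraries for Col3a1.

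Of the 18 members that passed, 9 did so with any 1 library left out (Itga1, Itgav, Lamb3, Col5a2, Col8a2, Col9a2, Col11a1, Col12a1 and Col26a1), and the number passing was lowest, at 11, without control library 1. Cell type markers moved too: motor neuron markers summed to 254 to 274 CPM in iHoxc9 libraries (4 of 5 lower than control), floor plate markers to 298 to 445 CPM against 454 to 597 CPM (2 of 5 lower), and endoderm markers to 8.80 to 18.7 CPM against 2.62 to 7.20 CPM (2 of 5 tested higher, 1 lower). Sox17, Gata4 and Afp were at 3 counts or fewer in every iHoxc9 library, and blood markers summed to 0.43 to 1.06 CPM against 3.78 to 6.55 CPM (2 of 5 lower). Mesenchyme and mesoderm markers summed to 2.54 to 3.53 CPM against 2.77 to 2.96 CPM (1 of 6 higher, 2 lower), with Tbx18 at that floor in both groups, Twist1 at it in iHoxc9 and Prrx1 at it in control neurons. Meox1 of the same list was at 1.84 to 2.41 CPM in iHoxc9 and 0.616 to 0.835 CPM in control libraries. The part of these cell types in the changes of the matrix genes was not tested.

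In iHoxc10 neurons 9 members passed against control, and those that fell were the fibrillar chains Col3a1 and Col1a2 and the fibril-associated Col16a1. Of the 80 members 6 rose (7.5%) and 3 fell (3.75%), against 6.67% and 7.75% of all genes, and 3 were called (3.75%) against 1.48% of all genes, so that the share was near the background for the rises and below it for the falls. The median LFC was 0.04 over the members and 0 over all genes tested. Col3a1 was at 0.280, 0.394 and 0.608 CPM in iHoxc10 libraries and at 4.63, 4.35 and 2.96 CPM in control libraries, a 9.36-fold fall (LFC -3.23 ± 0.493, adjusted p = 6.31e-05). Col1a2 was at 0.105, 0.215 and 0.243 CPM against 2.18, 1.19 and 0.449 CPM (LFC -2.78 ± 0.538, adjusted p = 0.000649). Col1a1, which joins Col1a2 in collagen I, was at 0.0966 ± 0.0730 CPM against 0.454 ± 0.292 CPM and did not pass (adjusted p = 0.0283). Col16a1 fell from 0.452 ± 0.145 to 0.103 ± 0.0881 CPM (LFC -2.14 ± 0.519), and did not pass without control library 1 or 3 or iHoxc10 library 1 or 2, or in a fit of the 2 groups alone (highest adjusted p 0.0353).

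The members that rose in iHoxc10 neurons came from all 3 families. Lama2 was at 3.15, 4.30 and 2.92 CPM in iHoxc10 libraries and at 1.57, 1.08 and 0.861 CPM in control libraries (LFC 1.55 ± 0.246, adjusted p = 9.38e-05). Itga3, a laminin receptor chain, was at 33.6, 38.5 and 29.0 CPM against 19.2, 18.2 and 14.2 CPM (LFC 0.97 ± 0.240, adjusted p = 0.00473). Col9a2 was at 2.56, 4.33 and 2.07 CPM against 1.06, 0.578 and 0.636 CPM (LFC 1.96 ± 0.363, adjusted p = 0.00043). Col9a3, the chain that assembles with it, went from 1.28 ± 0.480 to 3.03 ± 0.668 CPM (LFC 1.24 ± 0.331, adjusted p = 0.00841), and Col5a2 from 3.22 ± 1.57 to 7.10 ± 1.85 CPM (LFC 1.13 ± 0.291, adjusted p = 0.00637). Col14a1 went from 0.482 ± 0.108 to 1.36 ± 0.343 CPM (LFC 1.49 ± 0.338, adjusted p = 0.00242).

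With any 1 library left out, 4 of the 9 passed, Lama2, Col1a2, Col3a1 and Col9a2, and the count passing fell to 5 without iHoxc10 library 1 and 4 without iHoxc10 library 2. Itga3, Col5a2 and Col9a3 did not pass without control library 3 or iHoxc10 library 1 or 2 (highest adjusted p 0.0386, 0.0474 and 0.0622), and Col5a2 and Col9a3 also not without control library 2. Col5a2 did not pass in a fit of the 2 groups alone, nor Col9a3 when the test took genes that reached 10 counts in 3 or more libraries. Col14a1 did not pass without control library 1 or iHoxc10 library 2 or 3 (highest adjusted p 0.0164). Mesenchyme and mesoderm markers summed to 1.82 to 2.97 CPM in iHoxc10 libraries (2 of 6 lower than control), with Prrx1 and Tbx18 at 3 counts or fewer in every iHoxc10 and control library, Foxc2 so in iHoxc10 libraries alone, and Meox1 at 1.22 to 2.33 CPM against 0.616 to 0.835 CPM. Neural progenitor markers summed to 328 to 360 CPM against 263 to 573 CPM (3 of 5 lower) and blood markers to 1.37 to 1.47 CPM against 3.78 to 6.55 CPM (2 of 5 lower). The part of these cells in the changes of the members was not tested.

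The direct comparison of iHoxc9 with iHoxc10 neurons lies within 1 flow cell code. Against iHoxc10, 10 members were higher in iHoxc9 neurons (12.5%) and 4 lower (5%), with 2.6% and 2.4% of all genes, and 9 were called (11.2%) against 1.31% of all genes. The median LFC was 0.24 over the members and 0.03 over all genes tested. Itga1 was at a ratio of 112 (counting interval 30.7 to 932, adjusted p = 6.23e-07), with 234 reads over the iHoxc9 libraries and 2 over the iHoxc10 libraries. Itga8 was at 6.88, 5.39 and 5.45 CPM in iHoxc9 and at 1.23, 1.07 and 2.03 CPM in iHoxc10 libraries (LFC 2.04 ± 0.311, adjusted p = 9.65e-05). The iHoxc10 libraries lay below the 2.43 to 3.16 CPM of control libraries, but Itga8 did not pass in iHoxc10 against control. Itgav was 2.03-fold higher in iHoxc9 neurons (LFC 1.02 ± 0.204, adjusted p = 0.00178) but not without iHoxc9 library 1 or iHoxc10 library 3 (highest adjusted p 0.0252).

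Of the fibrillar collagen chains, Col3a1, Col1a1 and Col11a1 were higher in iHoxc9 than in iHoxc10 neurons, and Col11a1 is described below. Col3a1 was at 2.46, 4.94 and 1.95 CPM in iHoxc9 and 0.280, 0.394 and 0.608 CPM in iHoxc10 libraries (LFC 2.89 ± 0.495, adjusted p = 0.000362). Col1a1 was at 0.665, 1.27 and 0.836 CPM against 0.0700, 0.179 and 0.0405 CPM (LFC 3.19 ± 0.648, adjusted p = 0.002), and did not pass without iHoxc9 library 2 or iHoxc10 library 1 or 3 (highest adjusted p 0.0187). The other collagen I chain, Col1a2, was at 0.338 ± 0.0571 against 0.188 ± 0.0730 CPM and did not pass (adjusted p = 0.554). Col12a1 was at 25.5 ± 7.44 CPM against 6.76 ± 2.84 CPM (LFC 1.92 ± 0.369, adjusted p = 0.00125), and did not pass without iHoxc9 library 2 or iHoxc10 library 3 (highest adjusted p 0.0154). In the other direction, Lama2 was at 1.43 ± 0.0795 CPM with Hoxc9 and at 3.46 ± 0.740 CPM with Hoxc10 (LFC -1.27 ± 0.242, adjusted p = 0.00109; 0.0113 without iHoxc10 library 2). Itga2 was at 0.167 ± 0.0931 CPM against 0.925 ± 0.0464 CPM (LFC -2.38 ± 0.446, adjusted p = 0.000968) and Col26a1 at 7.04 ± 0.957 CPM against 24.3 ± 5.08 CPM (LFC -1.78 ± 0.292, adjusted p = 0.000217).

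Itga1, Itga2, Itga8, Col3a1 and Col26a1 passed with any 1 of the 6 libraries left out, while the calls numbered 5 without iHoxc9 library 1, iHoxc10 library 1 or iHoxc10 library 2. With the replicate number as a block, 12 members passed and 8 were called, and Col8a2 (LFC -2.18 ± 0.520, adjusted p = 0.00805 without the block) and Col11a1 (LFC 0.99 ± 0.237, adjusted p = 0.0084 without it) no longer passed. Their adjusted p was 0.0134 and 0.0102 with the block, and 0.0133 and 0.0115 when the test took genes that reached 10 counts in 3 or more libraries. Col8a2 also did not pass without iHoxc9 library 1 or 3 or iHoxc10 library 2 (highest adjusted p 0.0931), nor Col11a1 without any 1 of the 6 libraries (highest adjusted p 0.0849). Motor neuron markers summed to 254 to 274 CPM in iHoxc9 and 477 to 536 CPM in iHoxc10 libraries (4 of 5 lower in iHoxc9). Floor plate markers summed to 298 to 445 and 548 to 897 CPM (3 of 5 lower). Neural progenitor markers summed to 475 to 533 and 328 to 360 CPM (2 of 5 higher), and endoderm markers to 8.80 to 18.7 and 3.47 to 6.95 CPM (2 of 5 tested higher). Sox17, Gata4 and Afp were at 3 counts or fewer in every library of both groups. Of mesenchyme and mesoderm markers 1 of 6 was lower, and of neural crest and Schwann lineage markers 1 of 5 was higher and 1 lower. Whether these moved with the members was not tested.

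**Figure D4:**
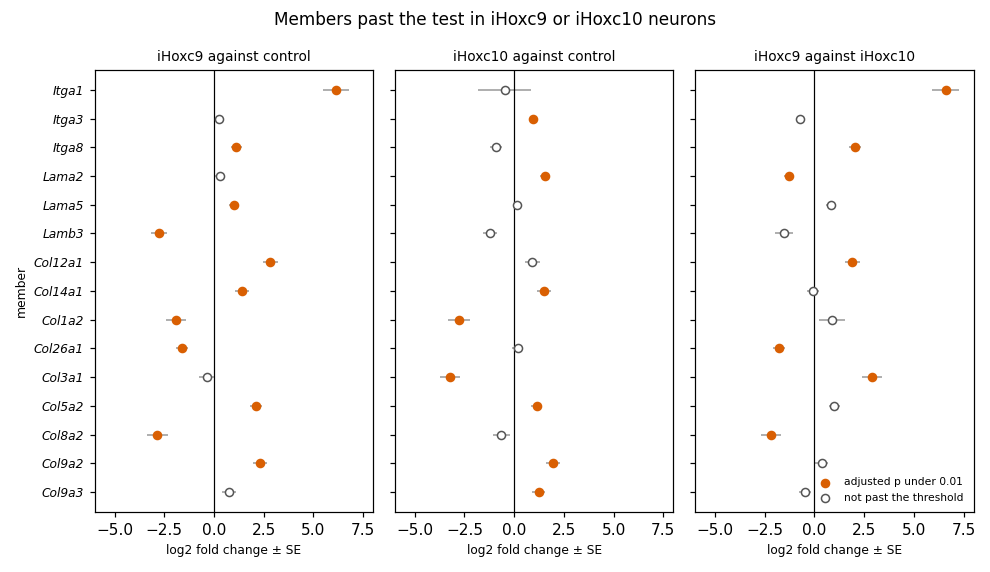
Log2 fold change ± SE (horizontal axes) of the 15 members named by rule that passed in at least 1 of 3 comparisons, 1 panel per comparison, with filled points for an adjusted p under 0.01 and open points otherwise. Itga1 lies farthest to the right in both panels with iHoxc9, Col3a1 is past the threshold in iHoxc10 against control and not in iHoxc9 against control, and the fitted value of Itga1 depends on the prior count since its reads in control and iHoxc10 libraries were 3 and 2.

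Few members passed in the neurons that carried the brachial factors Hoxc6 and Hoxc8. In iHoxc6 neurons 0 members passed or were called by edgeR, where 0.363% of all genes were higher, 0.224% lower and 0.115% called. At an unadjusted p under 0.05 there were 19 members (23.8%) against 21.2% of all genes, and DESeq2 passed 4 members. In iHoxc8 neurons 1 member rose and 0 fell or were called, with 1.03% of all genes higher, 1.09% lower and 0.22% called. That member was Lama2, at 2.87, 2.6 and 3.38 CPM in iHoxc8 libraries and at 1.57, 1.08 and 0.861 CPM in control libraries (LFC 1.32 ± 0.245, adjusted p = 0.00286). It did not pass without control library 3 or iHoxc8 library 1 or 3, or in a fit of the 2 groups alone (highest adjusted p 0.0348). At an unadjusted p under 0.05 there were 16 members in iHoxc8 neurons (20%) against 23.2% of all genes, and DESeq2 passed 3.

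Both counts changed without control library 2, the one with the highest collagen and progenitor marker sums. Without it 8 of the 80 members passed in iHoxc6 neurons (10%) and 8 in iHoxc8 neurons (10%), while 2.75% and 3.19% of all genes were higher in the same fits. Among the members were Lamc1, Lamb2, Col4a1, Col4a2, Col5a1, Col18a1 and Itga2 in both, all higher than control. Without control library 1 or control library 3 instead, 0 members passed in iHoxc6 and 1 in iHoxc8 neurons in each fit. In iHoxc8 neurons that member was Lama2 without control library 1. Without control library 3 it was Col1a2, which was lower than control (LFC -2.31, adjusted p = 0.00532). Control library 2 was the highest control library for summed collagens and laminins, so leaving it out by itself lowers the control level of such genes. In iHoxc6 neurons without that library the LFC was 1.39 for Col4a1 (adjusted p = 0.000571), 1.43 for Col4a2 (adjusted p = 0.00145) and 1.27 for Lamb2 (adjusted p = 0.000655). With all libraries, Col4a1 was at 88.4, 94.3 and 92.7 CPM in iHoxc6 libraries and at 41.2, 78 and 28.6 CPM in control libraries, without overlap. Itga2 was at 1.81, 1.87 and 2.29 CPM in iHoxc6 and 2.13, 1.20 and 2.35 CPM in iHoxc8 libraries against 0.610, 1.23 and 0.487 CPM in control libraries, which overlapped for iHoxc8.

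The levels of Lama2 across the day 4 groups ran from 1.17 ± 0.366 CPM in control, 1.43 ± 0.0795 in iHoxc9 and 1.59 ± 0.202 in iHoxc6 to 2.95 ± 0.393 in iHoxc8 and 3.46 ± 0.740 CPM in iHoxc10 neurons. The libraries of the first 3 overlapped with each other, as did those of the last pair, and no library of the first 3 groups reached the last pair.

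The ratios of the paired chains of collagen IV, and of laminin chains that replace each other in the trimer, differed between groups by their mean values. Per kilobase, the ratio of Col4a1 to Col4a2 was 1.67 ± 0.126 at day 2 and 1.42 ± 0.155 in control neurons (SD, n = 3). In induced neurons the group means were 1.28 ± 0.041 with Hoxc6, 1.16 ± 0.0785 with Hoxc8, 0.991 ± 0.0226 with Hoxc9 and 0.878 ± 0.0626 with Hoxc10. The iHoxc9 libraries (0.977 to 1.02) and the iHoxc10 libraries (0.806 to 0.918) did not overlap each other or any library of the other groups. Among laminin beta chains, the ratio of Lamb1 to Lamb2 was 0.807 to 1.01 in day 2 libraries, 0.102 to 0.193 in control libraries and 0.0224 to 0.0929 in the libraries of the 4 iHox lines. Among alpha chains, the ratio of Lama1 to Lama5 was 3.41 ± 1.28 at day 2 and 9.70 ± 1.92 in control neurons. It was 5.49 ± 0.291 in iHoxc6 and 5.47 ± 0.531 in iHoxc9 neurons, and 11.6 ± 1.34 in iHoxc8 and 12.3 ± 1.60 in iHoxc10 neurons, so that the iHoxc6 and iHoxc9 libraries (5.15 to 6.08) lay below all control libraries (8.43 to 11.9). These pairs were chosen after their values were seen, no test was made, and with 3 libraries a group the smallest two-sided exact permutation p is 0.1.

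**Figure D5:**
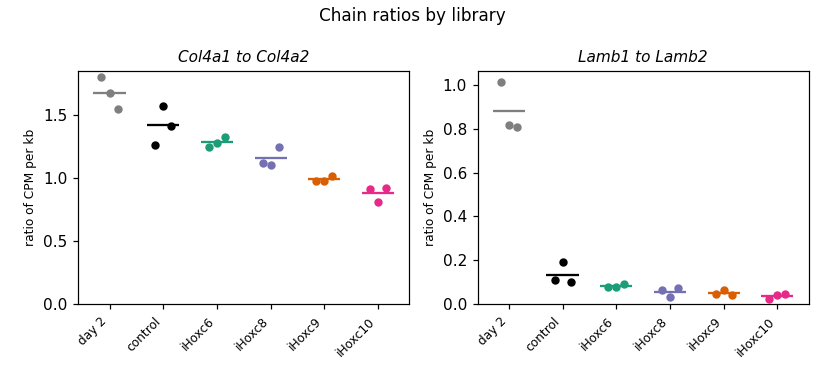
Ratio of CPM per kilobase (vertical axes, linear from 0) of Col4a1 to Col4a2 (left) and of Lamb1 to Lamb2 (right) in every library of the 6 groups (horizontal axes), with points for libraries and lines for group means. The Col4a1 ratio runs from 1.67 on average at day 2 to 0.878 in iHoxc10 neurons, and the Lamb1 ratio is highest in the 3 day 2 libraries.

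Genes that act with the members were taken from 3 lists. Over all genes tested, 21.2% were higher and 21.2% lower in control neurons than at day 2. These shares were 6.95% and 7.13% in iHoxc9 and 6.67% and 7.75% in iHoxc10 against control. In iHoxc9 against iHoxc10 they were 2.6% and 2.4%, and in iHoxc6 and iHoxc8 against control at most 1.09%. The 3 lists are short, and none was tested against these shares. Of 22 integrin adaptors and kinases, 7 were higher and 7 lower in control neurons than at day 2, 2 and 2 passed in iHoxc9 against control, 1 and 2 in iHoxc10 against control, 1 and 1 in iHoxc9 against iHoxc10 and 0 in iHoxc6 or iHoxc8 against control. Parvb, beta-parvin, which links integrin-linked kinase to actin, rose from 20.9 ± 5.44 to 224 ± 48.2 CPM between day 2 and day 4 (LFC 3.42 ± 0.185, adjusted p = 6.1e-13), while Fermt1, a kindlin that activates integrins, went from 1.13 ± 0.600 to 0.0364 ± 0.0387 CPM (adjusted p = 8.94e-06). Tln2, the talin of neurons and muscle, was at 184 ± 6.99 CPM in iHoxc10 and 93.4 ± 23.3 CPM in control neurons (LFC 0.98 ± 0.174, adjusted p = 0.000283), and at 83.2 ± 3.58 CPM in iHoxc9 neurons. Tns3, a tensin, rose from 13.4 ± 2.51 to 34.0 ± 10.4 CPM in iHoxc9 neurons (LFC 1.34 ± 0.254, adjusted p = 0.000497), and Rsu1, a partner of the integrin-linked kinase complex, fell in both iHoxc9 (LFC -0.75 ± 0.160) and iHoxc10 neurons (LFC -0.86 ± 0.161), which share the control libraries.

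Of 18 other matrix proteins and matrix receptors, 3 were higher and 11 lower in control neurons than at day 2, 6 rose and 4 fell in iHoxc9 neurons, 2 rose and 2 fell in iHoxc10 neurons, and 3 were higher and 2 lower in iHoxc9 than in iHoxc10 neurons. Reln, the secreted guidance protein reelin, rose from 1.51 ± 0.382 CPM in control to 30.6 ± 6.71 CPM in iHoxc9 neurons (LFC 4.34 ± 0.302, adjusted p = 6.51e-10) and to 3.73 ± 1.49 CPM in iHoxc10 neurons (LFC 1.31 ± 0.298, adjusted p = 0.00245). The hyaluronan receptor Cd44 rose from 0.587 ± 0.182 to 3.27 ± 0.254 CPM in iHoxc9 neurons (LFC 2.46 ± 0.345, adjusted p = 1.72e-05). The 4 that fell in iHoxc9 neurons, named after their values were seen, were Vtn, vitronectin, a ligand of the Itgav integrins (60.8 ± 7.06 to 11.2 ± 4.35 CPM, LFC -2.44 ± 0.434, adjusted p = 0.000274), Spp1 (LFC -2.34 ± 0.431), Tnr (LFC -1.38 ± 0.270) and Sdc1 (LFC -0.54 ± 0.136). Thbs1, thrombospondin 1, was at 6.12 ± 1.64 CPM in iHoxc9, 2.37 ± 0.774 CPM in control and 0.779 ± 0.474 CPM in iHoxc10 neurons, and the 2 iHox lines differed (LFC 2.96 ± 0.323, adjusted p = 1.22e-06). Between day 2 and day 4 Vtn rose from 3.18 ± 3.32 CPM at day 2 to 60.8 ± 7.06 CPM in control neurons (LFC 4.24 ± 0.481, adjusted p = 1.1e-07), and Tnr, the neural matrix protein tenascin R, from 0.0111 ± 0.0192 to 7.21 ± 1.96 CPM.

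Of 20 enzymes that make collagen or cut matrix, 3 were higher and 10 lower in control neurons than at day 2. In iHoxc9 neurons 3 rose, among them Loxl1, which crosslinks elastin and collagen (0.377 ± 0.122 to 1.67 ± 0.121 CPM, LFC 2.15 ± 0.427, adjusted p = 0.000826), and P4ha1, a prolyl hydroxylase needed for stable collagen (27.3 ± 5.16 to 44.3 ± 9.09 CPM, LFC 0.70 ± 0.190, adjusted p = 0.0092). In iHoxc10 neurons 1 rose, Adamts2, which trims the ends of procollagens (4.18 ± 0.817 to 7.56 ± 1.78 CPM, LFC 0.85 ± 0.2, adjusted p = 0.00318). In iHoxc6 neurons 1 rose, Bmp1, which also trims procollagens (73.3 ± 14.7 to 135 ± 7.76 CPM, LFC 0.88 ± 0.166, adjusted p = 0.00555). Loxl3 was higher in iHoxc9 than in iHoxc10 neurons (1.59 ± 0.027 against 0.535 ± 0.149 CPM, LFC 1.56 ± 0.344, adjusted p = 0.00429), and Timp1, an inhibitor of matrix metalloproteinases, fell from 4.48 ± 1.15 CPM at day 2 to 0.638 ± 0.0876 CPM in control neurons (LFC -2.80 ± 0.331, adjusted p = 2.13e-07).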

How the data were processed

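RNA from embryoid bodies was sequenced in 18 libraries, 3 per group. For alignment the authors used STAR (2.7.0c by the submitters' processing notes, which name mm10). They counted reads on RefSeq genes with featureCounts, summed genes that share an Entrez identifier, and the deposited values are raw read counts of each replicate. Symbols matched 25275 of 27179 identifiers through the RefSeq table of GRCm38.p6, the assembly that mm10 names, and exon lengths were taken from GENCODE vM21. The strand setting is not given in the sources used here, and 17 members overlap the span of another gene, so their counts are uncertain.

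Counts were analysed in R (4.3.3) with edgeR (4.0.16): TMM factors and the quasi-likelihood test, with group as the only term and all 18 libraries fitted together. The 20944 genes seen in any iHox library (1 count or more) were tested, with Benjamini-Hochberg adjustment across them. The standard error of an LFC was taken from the F statistic. The thresholds, an adjusted p under 0.01 and an absolute LFC above 2, follow the study. Levels are TMM-scaled CPM. Where a group held at most 3 counts in each library, a ratio of summed counts is given with its exact 95% interval, which covers counting error only, and a group at 0 was set at 3 counts. PCR copies cannot be separated in these counts. Code was tested on simulated data. Replicates are independent differentiations by the study's methods, and their counts differed beyond sampling noise in every pair (chi-square per degree of freedom 6.78 to 234).

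The members and gene lists were chosen with earlier results of these data known. Named genes were members called in any comparison with at least 1 CPM in a compared group, the 5 passing members with the largest LFC per comparison, partner chains of these above 1 CPM, the 3 highest members per family, and up to 2 genes per list and comparison; 1 gene named by this rule is not reported here. Alternatives were DESeq2 (1.42.0), its size factors within edgeR, 2 other filters, fits of 2 groups, an LFC above 1, omission of each library, and a block for the replicate number. The labels number the libraries of every group 1 to 3. Deviations of same-numbered iHoxc9 and iHoxc10 libraries from their group means correlated at r = 0.33, 0.321 and 0.412 over 14709 genes, which are not independent. The main test was unpaired, and only the replicate block took these numbers into account. That block was 1 factor over all 18 libraries, including groups whose numbers do not pair. In the other comparisons the lowest r was between -0.359 and -0.101, and the samples share only a number.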

Additional observations from a re-analysis of the deposited data

Results flagged for a closer look

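The level differed between iHoxc9 and iHoxc10 neurons, by the direct test of the 2 lines, for 9 members with an absolute LFC above 2. The cell line and the level of Hoxc6 change together with the induced Hox gene, and these cannot be told apart. No culture of either line without Dox was analysed here. As ratios of summed reads, Itga1 was 112 times, Col8a1 35.5 times and Col6a4 6.18 times higher in iHoxc9 neurons, the last of these from 58 and 9 reads (counting interval 3.04 to 14.2). The counting interval for Col8a1, from 37 reads against 1, was 5.98 to 1440. On the log2 scale Col1a1 (3.19), Col3a1 (2.89), Col16a1 (2.51) and Itga8 (2.04) were higher in iHoxc9 neurons, and Itga2 (-2.38) and Col8a2 (-2.18) were lower. Of these, Itga1, Itga2, Itga8 and Col3a1 passed with any 1 library left out, while Col6a4 did not pass when any 1 of the 6 libraries was left out. Col8a2 did not pass under the replicate block.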

How the results depend on the processing

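Of 79 results of a member passing in a comparison, 43 passed under every alternative, 36 did not in at least 1, and 0 turned direction in any. Most losses came from leaving out control library 3 (16), control library 1 (13) or iHoxc9 library 1 or iHoxc10 library 2 (11 each), and from fitting the 2 compared groups alone (16). DESeq2's Wald test passed 4 members in iHoxc6 and 3 in iHoxc8 neurons, against 0 and 1 by edgeR, and a fit of 2 groups passed 0 in iHoxc8 neurons. With an LFC above 1 the calls numbered 1 in iHoxc8, 17 in iHoxc9 and 8 in iHoxc10 neurons against control, and 33 between control and day 2, against 0, 10, 3 and 18 with an LFC above 2; the cause is the wider threshold itself. With each library left out in turn, the members passing ranged from 0 to 8 in iHoxc6, 0 to 8 in iHoxc8, 11 to 18 in iHoxc9 and 4 to 9 in iHoxc10 neurons against control, from 8 to 11 in iHoxc9 against iHoxc10 and from 33 to 38 in control against day 2 progenitors. Calls ranged from 0 to 1, 0 to 1, 7 to 8, 2 to 4, 5 to 8 and 14 to 19 in the same order. The replicate block gave 12 passing and 8 called members in iHoxc9 against iHoxc10, and in the comparisons where numbers do not pair Col17a1 (iHoxc9) and Col9a3 (iHoxc10) no longer passed with it. DESeq2's size factors moved the median LFC of all genes by at most 0.0492 in size. Depth limits levels under about 0.1 CPM. Other causes were not tested.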
